A study of Homo sapiens with 60 samples.

Results

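The comparison set 15 libraries of HepG2 cells treated with 100 µg/mL of a herbal water extract against 15 libraries treated with 20 µg/mL of the same extracts. It took 30 of the 60 libraries of the series, 3 for each of 2 doses of 5 extracts. The libraries were picked by extract and dose, with earlier results of these data known. HepG2 is a human liver carcinoma line that keeps many hepatocyte functions. Of the extracts, Astragali Radix, Cnidii Rhizoma and Rehmanniae Radix Preparata are single herbs, and Sagunja-tang and Samul-tang are formulas of several herbs. Samul-tang has among its herbs Cnidii Rhizoma and Rehmanniae Radix Preparata, so the 5 extracts are not unrelated materials. Cells of every group were treated for 24 h. Vehicle (dimethyl sulfoxide, given as 0.1% in the sample labels and as 2% in the series text) had 3 libraries, and its levels are given as background. Libraries at 500 µg/mL, those of Cinnamomi Cortex at 100 and 20 µg/mL, and 1 library a dose of Palmul-tang, a formula that joins the herbs of Sagunja-tang and Samul-tang, are used where named.

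In the liver, glucose output is set largely by the opposition of insulin and fasting signals. Insulin acts through the kinase AKT, which keeps FOXO transcription factors out of the nucleus; FOXO factors otherwise drive G6PC1, PCK1, IGFBP1 and other genes of the fasted state. Growth signals work the other way on the nucleolus, where ribosomes are made, and on DNA replication. Sensors such as NRF2 for electrophiles, HIF for low oxygen and the aryl hydrocarbon receptor (AhR) for planar ring compounds each control a small battery of liver genes. These are the groups in which the results are ordered.

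Dose and extract were balanced, and each dose difference was taken within an extract and so within a set, as the first number of the sample code is called here. Cnidii Rhizoma and Rehmanniae Radix Preparata carried set 5, Astragali Radix set 6, and both formulas set 7. The vehicle libraries carried none of these set numbers. A difference from vehicle therefore cannot be told apart from a difference between sets. The last number of the code ran with dose (2 or 5 at 100 µg/mL, 3 or 6 at 20 µg/mL), so that whatever it stands for cannot be told apart from dose. The labels do not say that replicates came from separate cultures. The p-values then measure the spread between these libraries, which may be technical.

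Total counts ran from 20.31 M to 31.85 M per library at 100 µg/mL (median 26.27 M) and from 18.52 M to 33.11 M at 20 µg/mL (median 25.27 M). Mitochondrial transcripts took 14.63 to 17.44% of counts at 100 and 14.64 to 17.67% at 20 µg/mL. The 10 hepatocyte markers summed to 53418 to 60616 CPM (counts per 1 M counts of the library) at 100 and 52343 to 62494 CPM at 20 µg/mL. The 20 markers of other cell types summed to 363 to 399 and 353 to 412 CPM, and 9 of them (CD3E, COL1A2, COL3A1, CSF1R, DCN, HBB, KRT7, PTPRC and STAB2) averaged under 0.1 CPM. Others of the list were expressed, and most of the sum came from SOX9 (mean 192.3 CPM), ACTA2 (65.7), CD68 (56.31) and KRT19 (47.97). Replicate 2 of Samul-tang at 20 µg/mL, the deepest library, lay at -39.8 on a first principal component on which the other 29 lay between -6.27 and 17.1. Replicate 2 of Rehmanniae Radix Preparata at 20 µg/mL, the shallowest, lay at -28.7 on the third, where the others lay between -8.0 and 15.9. Both are 20 µg/mL libraries, and the count of called genes is given below with and without them; the values of single genes include them.

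Going from 20 to 100 µg/mL changed few genes, and each by little. DEPP1, G6PC1, SGK1 and FST led the falls among called genes with at least 2 CPM and 1 sign in 5 of 5 extracts. Also called lower were 6 of 27 secreted liver proteins and 3 of 15 genes of gluconeogenesis and FOXO. Most members of both gene groups were not called. RBM3, ODC1 and AKR1B10 were among the rises. Of 15772 genes tested, 345 were called at an adjusted p under 0.05 by edgeR's quasi-likelihood test (2.19%), 144 higher (0.913%) and 201 lower (1.27%) at 100 µg/mL. A further count, at an unadjusted p under 0.05, was 2237. The fitted log2 change of the called genes had a median size of 0.12, ran from 0.06 to 0.75 in size, and passed 1.5-fold in 4 genes and 1.2-fold in 27. GLP2R (-0.75), PCDHA7 (-0.67) and RASSF6 (0.65) were among the 4. Over all genes tested the median change was 0.00. Among the called genes, 329 had the same sign in 5 of 5 extracts and the other 16 in 4 of 5. That share was not tested, since those differences make up the pooled one; over all tested genes 2292 (14.5%) had 1 sign in 5 of 5. Without the Samul-tang library that lay apart the count was 552, 250 higher and 302 lower, and held 334 of the 345, each with the same sign. Without the outlying library of Rehmanniae Radix Preparata as well it was 604, and held 318 of them.

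**Figure D1:**
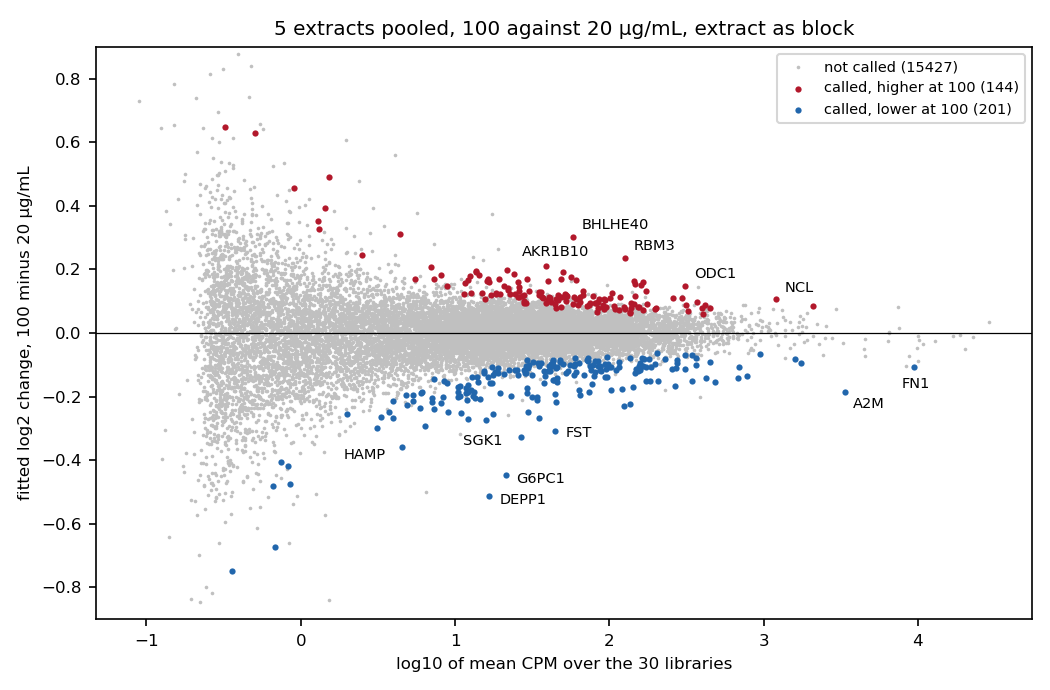
Fitted log2 change from 20 to 100 µg/mL over the 5 extracts (vertical axis) against the log10 of mean CPM over 30 libraries (horizontal axis), 1 point a gene, with called genes in red (144, higher at 100) and blue (201, lower). Most called genes lie within 0.3 of 0. Among the labelled genes DEPP1, G6PC1, HAMP, SGK1 and FST lie lowest, and 23 uncalled genes lie outside the range of the axis.

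The starts of 4 genes on which the results turn are shown, 250 bases before the RefSeq start of each (GRCh38.p14), read 5′ to 3′ on the strand of the gene. G6PC1, DEPP1 and FST had the largest or best supported falls, and CYP1A1 had the lowest p in the test for unequal changes among extracts. Capitals mark matches, on either strand, to GTAAACA, a core of the FOXO site, to CAAAACA, a core of the insulin response element, or to GCGTG, the core of the AhR site.
G6PC1, chr17:42900549-42900798, plus strand: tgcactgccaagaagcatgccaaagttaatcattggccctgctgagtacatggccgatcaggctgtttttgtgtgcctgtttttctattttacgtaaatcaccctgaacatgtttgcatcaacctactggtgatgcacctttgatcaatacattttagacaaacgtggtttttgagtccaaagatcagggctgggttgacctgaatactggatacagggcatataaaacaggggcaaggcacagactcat
DEPP1, chr10:44978810-44979059, minus strand: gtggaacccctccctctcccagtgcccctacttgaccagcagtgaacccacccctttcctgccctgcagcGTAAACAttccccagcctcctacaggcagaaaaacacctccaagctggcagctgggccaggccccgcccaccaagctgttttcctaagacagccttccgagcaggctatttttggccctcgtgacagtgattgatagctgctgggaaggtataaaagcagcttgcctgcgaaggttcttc
FST, chr5:53480379-53480628, plus strand: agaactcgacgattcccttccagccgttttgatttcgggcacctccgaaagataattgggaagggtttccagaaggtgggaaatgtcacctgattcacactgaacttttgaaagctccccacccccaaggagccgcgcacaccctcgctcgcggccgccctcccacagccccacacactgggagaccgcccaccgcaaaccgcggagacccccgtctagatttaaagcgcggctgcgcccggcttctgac
CYP1A1, chr15:74725529-74725778, minus strand: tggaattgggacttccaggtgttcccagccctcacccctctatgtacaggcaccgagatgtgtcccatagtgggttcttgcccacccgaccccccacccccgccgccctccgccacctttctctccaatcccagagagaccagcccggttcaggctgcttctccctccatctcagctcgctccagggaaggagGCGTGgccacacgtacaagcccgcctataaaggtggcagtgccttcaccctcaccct
DEPP1 held 1 match to GTAAACA, 180 bases before its start, and CYP1A1 held 1 match to GCGTG, 57 bases before. Of 35116 RefSeq promoter windows of that length 2.98% held GTAAACA, 4.3% CAAAACA and 32.2% GCGTG. These letters are a description of the windows, chosen after the expression values were seen, and a window with no match says nothing of factors that bind it.

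FST encodes follistatin, a secreted protein that binds and blocks activins and that the liver releases into blood (chr5:53480409-53487134 in GENCODE release 29). Its level at 20 µg/mL was 48.4, 48.7 and 52.9 CPM with Cnidii Rhizoma, 48.4, 49.9 and 49.2 CPM with Rehmanniae Radix Preparata and 47.2, 50.6 and 50.7 CPM with Astragali Radix. With Sagunja-tang it was 50.4, 50.6 and 48.7 CPM, and with Samul-tang 47.9, 50.2 and 48.2 CPM. At 100 µg/mL the same extracts gave 38.2, 39.0 and 40.0, then 40.1, 41.4 and 39.8, and 37.5, 40.4 and 39.7 CPM. The formulas gave 40.9, 41.2 and 38.7 CPM for Sagunja-tang and 42.2, 40.6 and 40.0 CPM for Samul-tang. The highest of the 15 libraries at 100 µg/mL (42.2 CPM) lay below the lowest of the 15 at 20 µg/mL (47.2 CPM). The pooled log2 change was -0.31 (SE 0.021, edgeR adjusted p = 9.08e-13), so that FST fell by 19.2%. FST was the only gene called within each of the 5 extracts (edgeR adjusted p 0.000281 to 0.032). Vehicle libraries held 40.4, 42.5 and 44.0 CPM, nearer to the 100 µg/mL than to the 20 µg/mL libraries.

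G6PC1 encodes the catalytic subunit of glucose-6-phosphatase, the last step of glucose output (chr17:42900797-42913369). Its 15 libraries at 20 µg/mL ran from 21.1 to 29.1 CPM, with a median of 24.4, and the 15 at 100 µg/mL from 14.0 to 19.3 CPM, with a median of 18.7. The dose groups did not overlap in these 30 libraries. The pooled log2 change was -0.45 (SE 0.039, edgeR adjusted p = 4.99e-10), and by extract it lay between -0.52 with Samul-tang and -0.40 with Cnidii Rhizoma and Sagunja-tang. Vehicle libraries held 19.8, 19.6 and 26.4 CPM. Each lay above the highest 100 µg/mL library (19.3 CPM), and the 26.4 CPM lay within the range at 20 µg/mL.

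DEPP1, a FOXO target that takes part in autophagy (chr10:44970981-44978810), had the largest fall of the genes above 2 CPM, -0.51 on the log2 scale (SE 0.053, edgeR adjusted p = 9.15e-08). It ran from 14.1 to 25.2 CPM at 20 µg/mL, with a median of 20.2, and from 12.01 to 16.6 CPM at 100 µg/mL, with a median of 13.8. The overlap came from 1 library, replicate 1 of Astragali Radix at 20 µg/mL, at 14.1 CPM. Vehicle held 9.96, 11.4 and 13.5 CPM, below each library at 20 µg/mL and nearer to the median at 100 µg/mL. SGK1, a kinase induced by serum and glucocorticoids (chr6:134169246-134318112), ran from 26.8 to 34.5 CPM at 20 and from 20.6 to 28.6 CPM at 100 µg/mL, with medians of 30.3 and 23.8. Its change was -0.33 (edgeR adjusted p = 3.24e-08), and vehicle lay at 29.4 to 33.6 CPM, with the 20 µg/mL libraries.

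**Figure D2:**
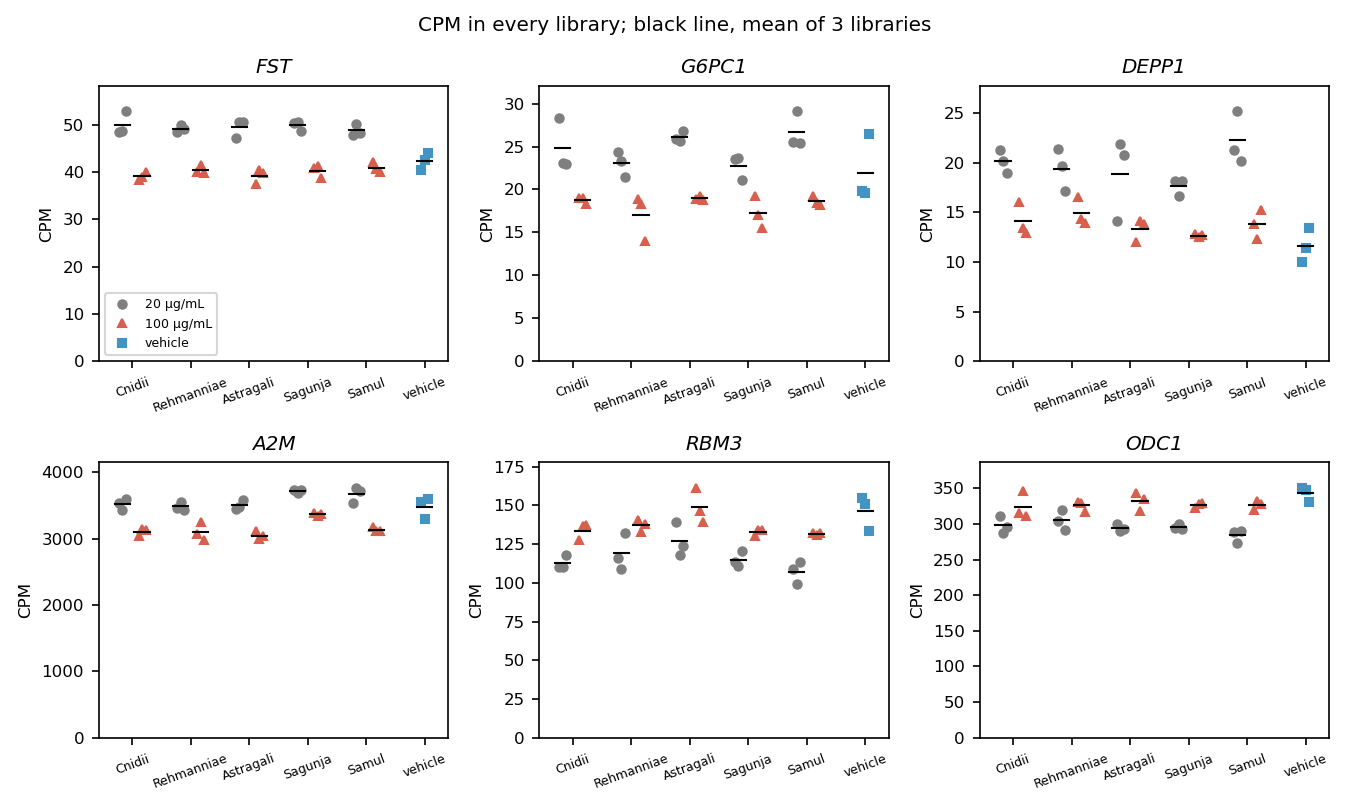
CPM (vertical axis) of 6 genes in each library at 20 µg/mL (grey circles) and 100 µg/mL (red triangles) of the 5 extracts and in vehicle (blue squares), with the mean of each 3 libraries as a black line. FST and G6PC1 libraries at 100 µg/mL sit below all 20 µg/mL libraries, A2M libraries sit lower within each extract, and most RBM3 and ODC1 libraries sit higher.

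Other genes of the FOXO and gluconeogenesis group moved less. Of 15 members tested, 3 were called, all lower (1.27% over all genes tested), and the list median was -0.04. Besides G6PC1 they were BCL6, a transcriptional repressor (-0.13, edgeR adjusted p = 0.00568), and PPARGC1A, the coactivator of gluconeogenesis (-0.12, edgeR adjusted p = 0.0346). The PPARGC1A call was lost on leaving out any of 15 of the 30 libraries. PCK1, which makes phosphoenolpyruvate, had a change of -0.04 (10.6 CPM at 20, 10.3 CPM at 100 µg/mL; edgeR adjusted p = 0.781). IGFBP1, a binding protein of insulin-like growth factors that FOXO induces, had a change of -0.18 with an SE of 0.078 (edgeR adjusted p = 0.285), and ran from 171 to 311 CPM at 20 and from 131 to 285 CPM at 100 µg/mL. PCK1 and IGFBP1 thus gave no call, which does not show that they stayed level.

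A wider list of genes that FOXO factors or lack of growth factors raise was drawn up after the values had been seen, in part from called genes, so its count supports nothing. Over all genes tested 1.27% were called lower and 0.913% higher, and 51.5% had a change above 0. Of 45 members tested, 16 were called lower and 0 higher, with 39 below 0 and a median of -0.09. They included TP53INP1, a stress protein of autophagy (-0.20), YPEL3, a growth suppressor (-0.27), MXD4, an antagonist of MYC (-0.15), BMF, a pro-apoptotic BCL2 relative (-0.16), and KLHL24 (-0.22). The growth factor receptors ERBB3 (-0.10), ERBB2 (-0.11) and IGF1R (-0.09), named after values were seen, were called. The ERBB2 call was lost without Cnidii Rhizoma, without Sagunja-tang or without Samul-tang, and the IGF1R call on leaving out any of 8 libraries. INSR, the insulin receptor, a member of the gluconeogenesis and FOXO list, was not called (-0.04, edgeR adjusted p = 0.311). IRS2, an adaptor of the insulin receptor, averaged 0.725 CPM and had a change of -0.13 (edgeR adjusted p = 0.712).

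Of 27 secreted liver proteins tested, 6 were called lower and 0 higher, beside 1.27% called lower over all genes tested, and the other 21 were not called. The list median was -0.03, with 4 members above 0, beside 0.00 and 51.5% over all genes. ITIH1, a heavy chain of the inter-alpha-trypsin inhibitor that binds hyaluronan, changed by -0.20 (edgeR adjusted p = 0.000786), TTR, the carrier of thyroxine and retinol, by -0.15, coagulation factor F5 by -0.11 and the protease inhibitor SERPINA3 by -0.15. ALB, the most abundant plasma protein, had a change of -0.09 that was not called (edgeR adjusted p = 0.0962). Outside the list, and named after values were seen, A2M, a broad protease inhibitor (chr12:9067664-9116229), ran from 3431 to 3771 CPM at 20 and from 2986 to 3391 CPM at 100 µg/mL. Its dose groups did not overlap, and its change was -0.18 (SE 0.017, edgeR adjusted p = 2.59e-09). ITIH3, a second heavy chain, changed by -0.23, the coagulation inhibitor SERPINA5 by -0.15, and fibronectin, FN1, at 9492 CPM one of the most abundant transcripts, by -0.11. Of 15 acute phase and complement genes 2 rose (ORM1 by 0.11 and SAA4 by 0.12) and 2 fell (CFB and C5, each by 0.08 on the log2 scale). Over all genes tested 0.913% were called higher. The SAA4 call was lost on leaving out any of 21 libraries.

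Other metabolic genes of the liver cell were among the falls. ACSM3, an acyl-CoA synthetase of medium-chain fatty acids, ran from 138 to 153 CPM at 20 and from 112 to 133 CPM at 100 µg/mL, without overlap, and changed by -0.22 (edgeR adjusted p = 1.76e-08). GPT2, the mitochondrial alanine aminotransferase, changed by -0.15, and ACSS2, which makes acetyl-CoA from acetate, by -0.12. HDAC5, a histone deacetylase that answers to fasting signals, changed by -0.25 and the small GTPase RAB17 by -0.27. The bile acid list held 1 call in each direction of 11 tested, NR0B2 (SHP, the repressor induced by FXR) at -0.18 and SLC51A, a subunit of the bile salt exporter OST, at 0.14. Of 23 cholesterol synthesis genes 1 was called, LSS at -0.11, while 20 had a change below 0 and the median was -0.04. Over all genes tested 0.913% were called higher and 1.27% lower, and 51.5% had a change above 0. The LSS call was lost on leaving out any of 14 libraries.

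Among genes of iron and metals there were few calls, and 0 among the 11 of iron handling. Over all genes tested 1.27% were called lower. HAMP, which encodes the iron hormone hepcidin, changed by -0.36 in the pooled fit (SE 0.088, edgeR adjusted p = 0.0221). With Samul-tang it went from 3.73, 6.55 and 4.96 CPM at 20 to 2.82, 2.80 and 2.23 CPM at 100 µg/mL, a change of -0.99. With Astragali Radix it was 5.87, 5.47 and 4.37 CPM at 20 and 5.69, 5.04 and 5.58 CPM at 100 µg/mL, a change of 0.06, so that the sign turned there. The test for unequal changes among extracts gave an edgeR adjusted p of 1 for HAMP, and the pooled call was lost on leaving out any 1 extract other than Astragali Radix. SMAD7, an inhibitor of BMP signalling and the other call among 15 hepcidin and BMP genes, changed by -0.20. The SMAD7 call was lost without Rehmanniae Radix Preparata or without Samul-tang, and the calls of both HAMP and SMAD7 with the replicate number as a block. Of 11 metallothionein and zinc genes 1 was called, MT1M, at -0.47 and under 1 CPM; its call was lost with that block and on leaving out any of 10 libraries. MT2A had a change of -0.20 (edgeR adjusted p = 0.07).

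**Figure D3:**
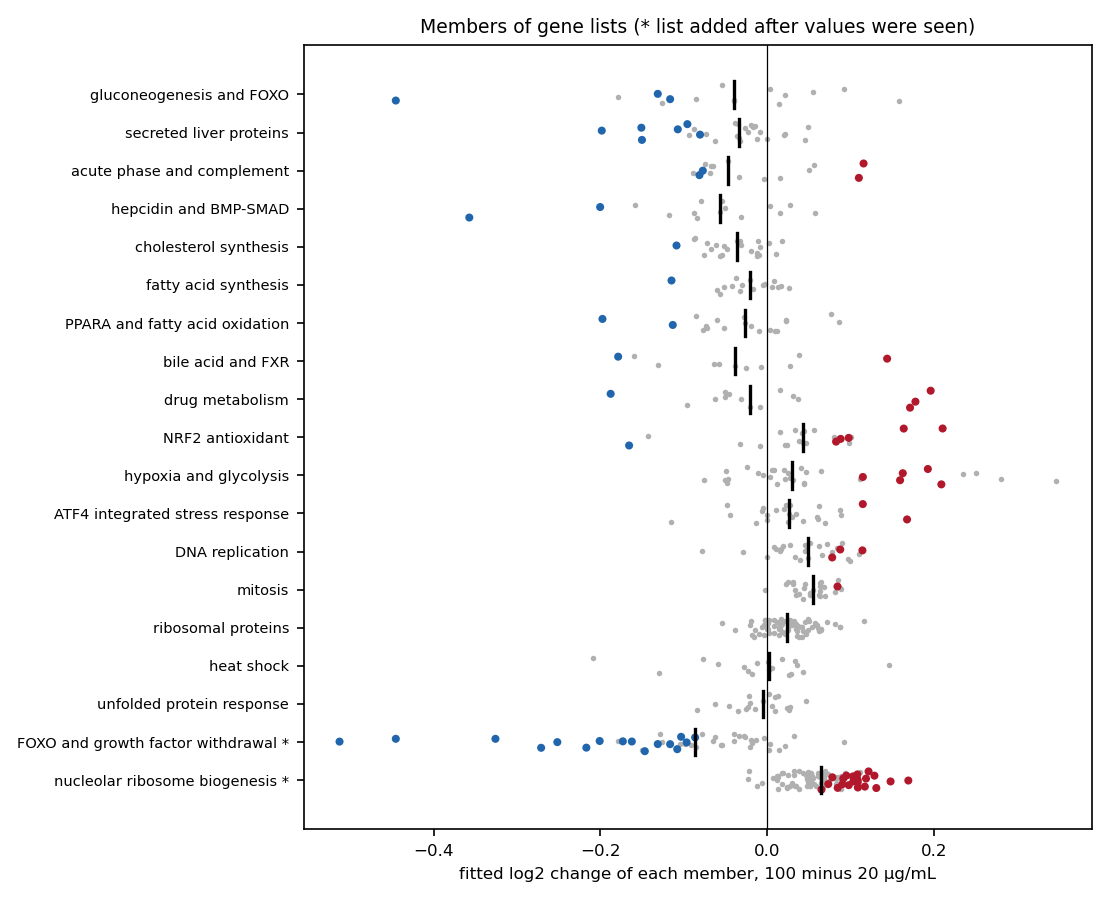
Fitted log2 change from 20 to 100 µg/mL (horizontal axis) of each tested member of 19 gene lists (vertical axis), with called members in red (higher) or blue (lower), others in grey and a black line at the list median. Called members of secreted proteins and of both FOXO lists lie left of 0 and those of the nucleolar list right of it, and the starred lists were added after values were seen.

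Nucleolar proteins were among the genes that rose. A list of 93 genes of ribosome production was added after the values had been seen, so its count supports nothing. It had 21 members called higher (0.913% over all genes tested), 0 lower and 72 not called, with 89 above 0 and a median of 0.07. POLR1G, a subunit of RNA polymerase I, ran from 23.4 to 26.7 CPM at 20 and from 25.2 to 29.3 CPM at 100 µg/mL, and its 3 libraries at 100 lay above the 3 at 20 µg/mL within each of the 5 extracts (0.13, edgeR adjusted p = 0.0018). The RNA helicase DDX21 changed by 0.11, the acetyltransferase NAT10 by 0.08, the small subunit factor UTP20 by 0.10 and CMSS1 by 0.17. The calls of DDX21, NAT10 and UTP20 were each lost without Cnidii Rhizoma, without Astragali Radix or without Sagunja-tang. That of CMSS1 was lost without Sagunja-tang or without Samul-tang. NCL, nucleolin, averaged 1208 CPM and changed by 0.11 (edgeR adjusted p = 0.0287), with a call that was lost on leaving out any of 6 libraries. The small nucleolar RNA hosts SNHG1, GAS5 and ZFAS1 changed by 0.11 to 0.12. The GAS5 call was lost without Sagunja-tang, and that of ZFAS1 on leaving out any 1 extract other than Cnidii Rhizoma. ODC1, the first enzyme of polyamine synthesis and a MYC target, ran from 273 to 319 CPM at 20 and from 312 to 346 CPM at 100 µg/mL (0.15, edgeR adjusted p = 4.09e-06). The 72 ribosomal protein genes gave 0 calls, with 57 above 0, beside 51.5% over all genes tested, and a median of 0.02.

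Replication and mitosis genes leaned the same way with few calls. Of 28 replication genes 26 had a change above 0, 3 were called higher (RRM2 at 0.09, GINS1 at 0.11 and MCM7 at 0.08) and the median was 0.05. Over all genes tested 51.5% had a change above 0 and 0.913% were called higher. The mitosis list of 27 had 26 above 0 and a median of 0.06, and CCNA2, cyclin A, was its only call (0.08, edgeR adjusted p = 0.0374). The calls of MCM7 and CCNA2 were lost on leaving out any of 25 and 18 libraries. That of GINS1 was lost without Cnidii Rhizoma, without Sagunja-tang or without Samul-tang. Without the Samul-tang library that lay apart, 5 replication and 3 mitosis genes were called higher.

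RBM3, an RNA-binding protein of cold and growth responses, was the rise with the lowest p (chrX:48574449-48579066). It ran from 99.0 to 140 CPM at 20, with a median of 114, and from 128 to 162 CPM at 100 µg/mL, with a median of 134. The pooled ranges overlapped, but within each extract except Astragali Radix the 3 libraries at 100 µg/mL lay above the 3 at 20 µg/mL, while replicate 3 of Astragali Radix at 100 (139.2 CPM) lay just under replicate 1 at 20 µg/mL (139.5 CPM). Its change was 0.24 (SE 0.027, edgeR adjusted p = 2.08e-07), and vehicle held 134 to 155 CPM, so that at 20 µg/mL RBM3 lay under vehicle in 14 of 15 libraries.

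Among NRF2 targets, 5 of 22 were called higher and 1 lower, with 18 above 0 and a median of 0.04. Over all genes tested 0.913% were called higher and 1.27% lower, and 51.5% lay above 0. AKR1B10, an aldo-keto reductase that clears reactive carbonyls (chr7:134527592-134541408), ran from 32.3 to 39.5 CPM at 20 and from 37.8 to 46.3 CPM at 100 µg/mL, with a change of 0.21 (edgeR adjusted p = 9.02e-06). ABCC3, an efflux pump for conjugates, changed by 0.16, the sulfiredoxin SRXN1 by 0.09 and the quinone reductase NQO1 by 0.10. The SRXN1 call was lost without Cnidii Rhizoma, without Rehmanniae Radix Preparata or without Sagunja-tang. That of NQO1 was lost without Rehmanniae Radix Preparata, without Sagunja-tang or without Samul-tang. AKR1C1, a steroid reductase of the same family as AKR1B10, went the other way. It ran from 260 to 313 CPM at 20 and from 231 to 267 CPM at 100 µg/mL, was lower within each of the 5 extracts without overlap, and changed by -0.17 (edgeR adjusted p = 1.85e-06). HMOX1, heme oxygenase, had a change of 0.03. AKR1C1 has close relatives in its cluster, between which reads may have been divided.

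Hypoxia and glycolysis genes gave 5 calls of 32, all higher, with 24 above 0 and a median of 0.03. For the lists of this paragraph, the shares over all genes tested were 0.913% called higher, 1.27% called lower and 51.5% above 0. HK2, hexokinase, changed by 0.16, the pyruvate dehydrogenase kinase PDK1 by 0.19, the vasoactive peptide ADM by 0.21 and the enolase ENO2 by 0.11. The ENO2 call was lost on leaving out any of 17 libraries. That of HK2 was lost without Cnidii Rhizoma or without Sagunja-tang, and that of ADM without Rehmanniae Radix Preparata or without Sagunja-tang. The PDK1 call was lost on leaving out any 1 extract other than Astragali Radix. BHLHE40, a repressor induced by low oxygen and a member of the clock list, ran from 32.6 to 70.4 CPM at 20 and from 36.8 to 82.4 CPM at 100 µg/mL. Its change of 0.30 had an SE of 0.076 (edgeR adjusted p = 0.0348), and the call was lost on leaving out any of 14 libraries. The integrated stress response list, under the factor ATF4, held 2 calls of 25, DDIT4, an inhibitor of mTOR, at 0.17 and STC2 at 0.11. The call of DDIT4 was lost on leaving out any of 3 libraries and that of STC2 on any of 16, while without the Samul-tang library that lay apart the list held 5 calls. Drug metabolism genes gave 3 rises of 15, GSTA1 (0.17), UGT1A1, which conjugates bilirubin (0.20), and GSTA2 (0.18), and 1 fall, CYP3A7 (-0.19). The GSTA genes are near copies of each other and their separate counts are uncertain. No heat shock, unfolded protein response, interferon, proteasome, respiratory chain or mitochondrial genome gene of the lists was called; 13 of 13 tested interferon genes and 13 of 13 mitochondrial genes had a change below 0, with medians of -0.06 and -0.03.

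Taking the rule of largest change, the 12 falls besides DEPP1, G6PC1, SGK1 and FST were FXYD1 (-0.30), PDGFRB (-0.29), FCGBP (-0.27), YPEL3, RAB17, the antisense transcript RAB11B-AS1 (-0.27), LINC01134 (-0.26) and FRY (-0.26). PDGFRB, a growth factor receptor, is a marker of stellate cells. Of the other stellate and fibroblast markers ACTA2 averaged 65.7 CPM (-0.07, edgeR adjusted p = 0.114) and COL1A1 0.368 CPM, and COL1A2, COL3A1 and DCN averaged under 0.1 CPM. CD68, a lysosomal marker of macrophages, was the other called marker of other cell types, at 0.18, with CD14 at 2.9 CPM and PTPRC and CSF1R under 0.1 CPM. The part of other cell types in these changes was not tested. The 12 rises were ACTA1 (0.31), BHLHE40, TMTC1 (0.25), RBM3, AKR1B10, ADM, UGT1A1, PDK1, SLC16A6 (0.19), the glycerol-3-phosphate dehydrogenase GPD1 (0.18), DLEU2 (0.18) and TNFAIP8 (0.18). The calls of TMTC1, DLEU2 and LINC01134 were lost on leaving out any of 6, 21 and 23 libraries.

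**Figure D4:**
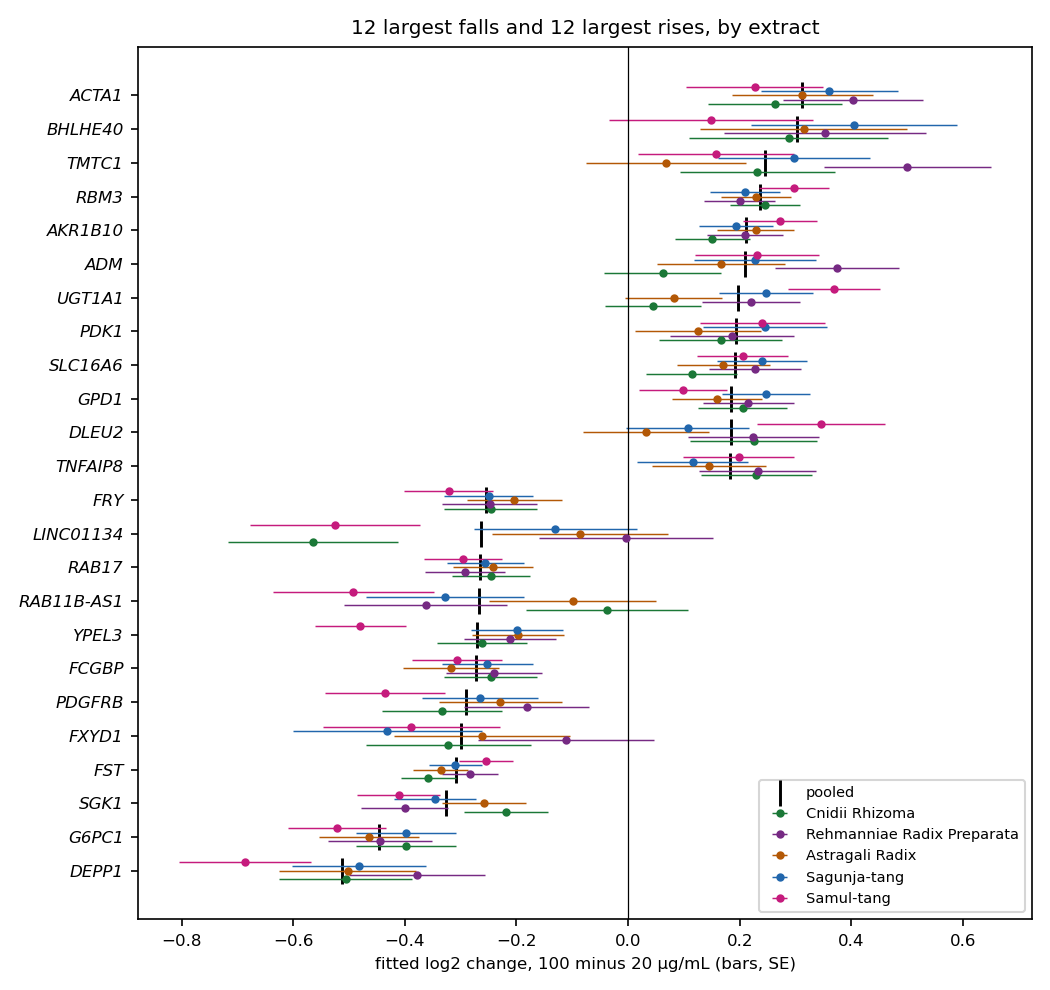
Fitted log2 change from 20 to 100 µg/mL (horizontal axis; bars, SE) of the 12 largest falls and 12 largest rises (vertical axis) within each extract (coloured points) and pooled (black bars). Extracts lie close together for FST, G6PC1, RAB17 and RBM3 and spread widely for LINC01134 and RAB11B-AS1.

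Single extracts gave few calls by edgeR's adjusted p. FST was the 1 call for Cnidii Rhizoma (0.00634% of genes tested). There were 6 for Rehmanniae Radix Preparata (0.038%), 5 for Astragali Radix (0.0317%) and 3 for Sagunja-tang (0.019%), all lower at 100 µg/mL. The 6 were FST, SGK1, ITIH3, SMAD7, KLHL14 and JAKMIP2, the 5 were FST, G6PC1, A2M, ACSM3 and MATN3, and the 3 were FST, ACSM3 and TP53INP1. At an unadjusted p under 0.05 these extracts had 706, 855, 669 and 606 genes. Samul-tang had 32 calls (0.203%), 12 higher and 20 lower, and 2216 at an unadjusted p under 0.05, but 4 calls without the replicate 2 library at 20 µg/mL that lay apart, and 372 or 375 with it when replicate 1 or 3 of that group was left out. Of the 345 pooled calls, 28 were called in any single extract. All 3 libraries at 100 lay below all 3 at 20 µg/mL in at least 3 of the 5 extracts for 178 genes (1.13%), and above them for 150 (0.951%). In 5 of 5 extracts it held for 21 genes below (0.133%), among them FST, G6PC1, A2M, ACSM3, ITIH3, RAB17 and AKR1C1, and for 3 above (0.019%), CES1, ADH4 and POLR1G. CES1 is a carboxylesterase that activates or clears ester drugs, and ADH4 an alcohol dehydrogenase that also acts on retinol.

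The dose step differed between extracts for 2 genes (0.0127%) by edgeR's test with 4 degrees of freedom, against 499 at an unadjusted p under 0.05. CYP1A1, a cytochrome P450 that the AhR induces (chr15:74719542-74725610), was the clearer one (edgeR adjusted p = 7.32e-06). With Samul-tang it went from 14.4, 17.7 and 14.1 CPM at 20 to 29.6, 28.5 and 28.4 CPM at 100 µg/mL, a change of 0.90 (SE 0.084, edgeR adjusted p = 3.69e-08). With Sagunja-tang it went from 11.5, 11.3 and 11.6 to 14.5, 15.3 and 14.7 CPM, a change of 0.37 that was not called. With Cnidii Rhizoma and Astragali Radix the changes were -0.21 and -0.20, and with Rehmanniae Radix Preparata 0.04. Vehicle held 12.5, 10.8 and 12.6 CPM. The pooled change of 0.24 was not called (edgeR adjusted p = 0.237), and 2 of 9 AhR target genes tested were called, NQO1 and ALDH3A1, the latter at 1.53 CPM with a change of 0.49. Both were higher, beside 0.913% called higher over all genes tested. RGPD5, the other gene, is one of a family of near-identical copies and averaged 1.96 CPM, so its count is uncertain. It stood at 6.81, 6.03 and 3.14 CPM with Samul-tang at 100 µg/mL and at 1.42, 1.14 and 1.46 CPM at 20 µg/mL (edgeR adjusted p = 0.0472 for unequal changes), and its call was lost on leaving out any of 25 libraries.

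The next step, from 100 to 500 µg/mL of the same extracts, shares the 100 µg/mL libraries, so values are set side by side and no overlap was counted. It called 514 of 15824 genes by edgeR (3.25%), 233 higher (1.47%) and 281 lower (1.78%). G6PC1 fell again, by 0.28 on the log2 scale (edgeR adjusted p = 0.000314), to a range of 12.1 to 17.7 CPM at 500 µg/mL, below vehicle (19.6 to 26.4 CPM). DEPP1 fell by 0.35 and SGK1 by 0.21. FST had a change of -0.09 (edgeR adjusted p = 0.0787), beside -0.31 in the first step. A2M had -0.05, RAB17 -0.06 and RBM3 0.05, none of them called. AKR1B10, in contrast, rose by 0.67 (edgeR adjusted p = 5.54e-08), to 50.1 to 89.3 CPM. AKR1C1, which fell in the first step, rose by 0.43 in the second (edgeR adjusted p = 3.15e-16), to 286 to 385 CPM. CYP1A1 reached 79.5, 77.7 and 81.2 CPM with Samul-tang and 54.5, 61.3 and 55.5 CPM with Sagunja-tang, against 10.8, 11.3 and 12.7 CPM with Cnidii Rhizoma.

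**Figure D5:**
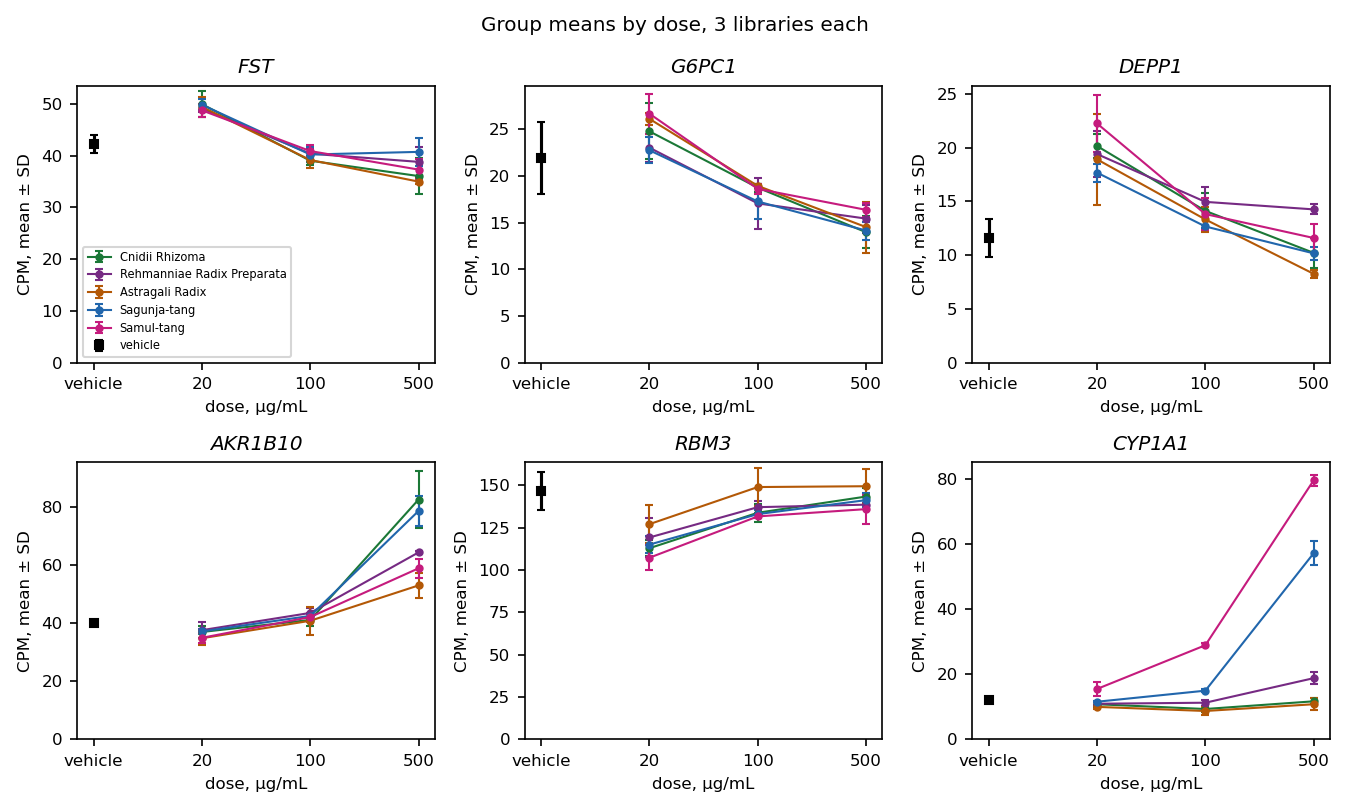
Mean CPM ± SD of 3 libraries (vertical axis) of 6 genes with vehicle and at 20, 100 and 500 µg/mL (horizontal axis, evenly spaced) of the 5 extracts. FST and DEPP1 stand above vehicle at 20 µg/mL and fall by 100 µg/mL, AKR1B10 rises mainly at 500 µg/mL, and CYP1A1 separates Samul-tang and Sagunja-tang from the rest.

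Cinnamomi Cortex, an extract of set 6 that was kept out of the pooled comparison, differed from the mean of the 5 extracts in the same step for 766 of 15871 genes by edgeR (4.83%), 440 with a higher and 326 with a lower change. Its own step from 20 to 100 µg/mL called 1182 genes (7.45%). FST turned the other way there, from 49.99, 49.8 and 51.6 CPM at 20 to 64.7, 69.1 and 67.5 CPM at 100 µg/mL (0.41), a difference of 0.72 from the 5 extracts (SE 0.051, edgeR adjusted p = 4.5e-13). The change of G6PC1 was 0.31 with Cinnamomi Cortex (difference 0.75, edgeR adjusted p = 6.26e-07) and that of DEPP1 0.49 (difference 1.00, edgeR adjusted p = 3.96e-05). At 20 µg/mL Cinnamomi Cortex held 25.4 to 31.5 CPM of G6PC1, in part above the range of the 15 libraries (21.1 to 29.1 CPM), and 16.1 to 22.7 CPM of DEPP1, within theirs (14.1 to 25.2 CPM). ASNS, asparagine synthetase, and SLC7A11, the cystine transporter, both under ATF4, had changes of 1.03 and 1.06 with Cinnamomi Cortex and of 0.06 and 0.04 in the 5 extracts. HP, haptoglobin, and the collagen gene COL27A1 had -0.75 and -0.64 against -0.05 and -0.06. Palmul-tang, with 1 library a dose and so no test, held 47.1 CPM of FST at 20 and 39.1 CPM at 100 µg/mL, 24.1 and 19.0 CPM of G6PC1, and 16.0 and 13.2 CPM of DEPP1.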

How the data were processed

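The authors deposited expected counts, that is, reads per gene as RSEM estimates them, not scaled for depth or gene length; the unit was read from the values, 8.58% of which are not whole. Per the submitters' processing notes, reads were handled with RSEM 1.3.3, STAR 2.7.3a, Trim Galore 0.6.5 and FastQC 0.11.9 on GRCh38; the annotation release is not given in the sources used here. Per the labels' protocols, directional libraries from RNA with an integrity number above 7 were read as 100 bp pairs. Of 270 columns, 210 were not used.

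Counts were rounded and analysed with edgeR 4.0.16 in R 4.3.3. Genes passed filterByExpr, TMM factors (0.982 to 1.03) came from 48 libraries (vehicle and the 5 extracts), and the quasi-likelihood F test was applied to a model of extract plus dose over 30 libraries, two-sided, with Benjamini-Hochberg adjustment over all genes tested and an adjusted p under 0.05 called. The SE is the log2 change divided by the square root of F. Contrasts within an extract, their inequality, and Cinnamomi Cortex came from models with a mean per group. CPM uses TMM-scaled totals. Counting error weighs more the fewer counts a gene has, and its share of the spread was not measured. The SE was 0.049 for ADM at 6.97 CPM and for SMAD7 at 8.41 CPM, beside 0.019 for ACSS2 at 158 CPM.

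Named are the 12 largest changes each way with a call, at least 2 CPM, a symbol and 1 sign in 5 extracts, up to 4 members of each of 34 gene lists, and the 5 lowest adjusted p-values of the interaction and of the Cinnamomi Cortex difference. The libraries compared and the lists were chosen with earlier results of these data known. The 2 starred lists, the promoters, their motifs and further genes were chosen after values were seen, as were 2 left-out sets of libraries; promoters of SGK1 and an antioxidant motif were also looked at and are not shown. Gene symbols are from a separate reference of gene names, or from GENCODE release 29 where that reference had none. Positions are from GENCODE release 29 and promoters from RefSeq. The fit was tested on simulated data. Alternatives were RLE and other TMM factors, no filter, DESeq2 1.42.0, a replicate block, other sets of extracts and leaving out each library. No replicate pair held duplicate counts (chi-square per degree of freedom 3.19 to 42.9).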

Additional observations from a re-analysis of the deposited data

Results flagged for a closer look

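In 2 genes the step from 20 to 100 µg/mL differed between the 5 extracts by edgeR's interaction test. CYP1A1 had an adjusted p of 7.32e-06, with changes of 0.90 with Samul-tang, 0.37 with Sagunja-tang and -0.21 with Cnidii Rhizoma, and stayed called on leaving out each of the 30 libraries in turn. RGPD5 had an adjusted p of 0.0472, at 1.96 CPM and with near-identical copies in the genome. Cinnamomi Cortex differed from the mean of the 5 extracts in the same step for 766 genes by edgeR's adjusted p. The 5 with the lowest adjusted p were ASNS (1.26e-16, edgeR), SLC7A11 (2.28e-14), FST (4.5e-13), HP (2.75e-12) and COL27A1 (4.95e-12). FST moved in opposite directions, by 0.41 with Cinnamomi Cortex and by -0.31 in the 5 extracts. The count was 490 without replicate 3 of Cinnamomi Cortex at 100 µg/mL and 1197 without replicate 2 of Samul-tang at 20 µg/mL.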

How the results depend on the processing

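Size factors hardly moved the counts of called genes: the pooled comparison gave 347 with RLE and 345 with TMM over the fit alone, while the interaction gave 1 with RLE. DESeq2 gave 550 pooled calls, and 2, 15, 15, 13 and 104 for Cnidii Rhizoma, Rehmanniae Radix Preparata, Astragali Radix, Sagunja-tang and Samul-tang. Without the filter on low counts the same extracts gave 78, 93, 75, 101 and 317 calls and the interaction 227; the pooled count was 500. Leaving out 1 extract gave 138 pooled calls without Cnidii Rhizoma, 258 without Rehmanniae Radix Preparata, 198 without Astragali Radix, 113 without Sagunja-tang and 343 without Samul-tang, beside 345 with all 5, and there were 34, 7 and 19 with set 5, 6 or 7 alone. Without Cnidii Rhizoma 40 of the calls were higher and 98 lower, and without Sagunja-tang 28 and 85, beside 144 and 201 with all 5. Leaving out 1 extract also cost calls given above without that limit, among them TTR, SERPINA3, CFB, C5, BCL6, NR0B2, SLC51A, UGT1A1, GSTA2 and CYP3A7. With set 6 alone, which is Astragali Radix, the change of HAMP was 0.05718 in place of -0.36. Leaving out 2 libraries that lay apart (replicate 2 of Samul-tang and of Rehmanniae Radix Preparata, both at 20 µg/mL) gave 604 pooled calls, 16 for Astragali Radix, 4 for Cnidii Rhizoma, 13 for Sagunja-tang, 5 for Samul-tang, and 1 for the interaction. Leaving out 3 libraries that lay far along the third component (replicate 1 of both Astragali Radix groups and replicate 2 of Rehmanniae Radix Preparata at 20 µg/mL) gave 283 pooled calls, 1 for Astragali Radix, 0 for Rehmanniae Radix Preparata, 1 for Sagunja-tang and 1 for the interaction.

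Leaving out each library in turn gave 254 to 552 pooled calls, 1 to 3 for Cnidii Rhizoma, 0 to 14 for Rehmanniae Radix Preparata, 0 to 12 for Astragali Radix, 0 to 13 for Sagunja-tang, 4 to 375 for Samul-tang, 1 to 2 for the interaction, 396 to 531 for 500 against 100 µg/mL and 490 to 1197 for Cinnamomi Cortex. The 552, and the 4 and 14, came without replicate 2 of Samul-tang at 20 µg/mL. FST and G6PC1 stayed called under each alternative run, including these. The cause of these shifts was not tested.

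Same-numbered libraries at both doses had deviations with r of -0.112 to 0.125 over 15 pairs, 1 of them over 0.1. Of the 15, 6 correlated best with their own number, among them all 3 of Rehmanniae Radix Preparata. Weak correlation over all genes does not show that replicate numbers carry no pairing. With the replicate block the pooled count was 345 (146 higher), with HAMP, SMAD7 and MT1M among the calls lost, and the interaction count was 2. The counts by extract were 4, 10, 9, 8 and 35 in the order above, beside 1, 6, 5, 3 and 32 without the block. The count was 668 beside 514 for 500 against 100 µg/mL, and 982 beside 766 for Cinnamomi Cortex. Depth limits genes near 1 CPM: the SE of MT1M was 0.125, and that of FST 0.021.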
